A study of Mus musculus with 8 samples.

Results

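A set of 48 mouse genes encodes chromatin remodelers, histone deacetylases, enzymes of DNA methylation and the catalytic subunits of Polycomb repressive complex PRC2. Their RNA was compared between sorted mesodiencephalic dopaminergic (mdDA) neurons, an mdDA domain and a lateral domain of the embryonic midbrain. The genes were listed by name and looked up in the gene symbols of the array annotation. Each was represented by 1 probe set, the one with the highest mean over all arrays where several carried the symbol, and all 48 were found among 19938 genes with a symbol of their own. Of these, 42 had 1 probe set and 6 had several.

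ATP-dependent remodelers slide or evict nucleosomes and fall into families named after their ATPases, among them ISWI, BAF (the mammalian SWI/SNF complex) and CHD. During the step from neural progenitor to neuron the BAF complex exchanges several subunits in mouse brain: the actin-related protein ACTL6A gives way to ACTL6B, the PHD finger proteins PHF10 and DPF2 to DPF1 and DPF3, and SS18 to SS18L1. Histone deacetylases (HDACs) remove acetyl groups from histones and other proteins, DNA methyltransferases set and TET enzymes oxidise cytosine methylation, and PRC2 methylates histone H3 at repressed genes.

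RNA was measured on 8 Mouse Gene 1.0 ST arrays in 4 groups of 2 technical replicates. The sorted mdDA neurons at E14.5 and those at E13.5 came from the ventral midbrain of Pitx3GFP/+ embryos (strain C57BL/6 x 129/Ola (mixed)), in which GFP marks cells that express the mdDA transcription factor gene *Pitx3*, and were collected by fluorescence-activated sorting for GFP. Both domains, mdDA and lateral, were cut by laser from sections of 5 pooled E12.5 BAT-gal embryos (strain B6D2F1 (mixed)), which carry a b-galactosidase reporter of WNT/b-catenin signaling driven by LEF1/TCF sites. The mdDA domain was outlined by staining for b-galactosidase and PITX3, and the lateral domain, negative for both, served as the control region. The mdDA domain therefore held every cell inside the outline, progenitors and neurons alike, whereas the sorted samples held GFP-positive cells. Embryonic stage, strain and way of isolation all differ between the sorted neurons and the dissected domains. The dissected heads were also fixed, and their sections stained, before RNA was extracted. The sorting and the arrays of the sorted neurons were reported in an earlier study. The parts of these differences cannot be told apart. Because the replicates were technical, every p-value below measures the spread between arrays and not between embryos.

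Markers of several cell types were measured beside the chromatin genes and differed between the same groups. All 7 mdDA neuron markers measured were higher in the mdDA than in the lateral domain, and 5 of the 7 were higher again in sorted neurons than in the mdDA domain. The mean log2 level of 9 cell division genes lay between 4.81 and 4.84 at E14.5, between 4.77 and 4.78 at E13.5, between 5.78 and 5.82 in the mdDA domain and between 7.07 and 7.08 in the lateral domain. Of these 9, 6 were lower in the sorted neurons than in the mdDA domain and 3, among them *Pcna* (-0.15), were not called. For 8 neural progenitor genes the corresponding means were 6.20 to 6.34 at E14.5, 5.96 to 6.08 at E13.5, 7.34 to 7.42 in the mdDA domain and 8.15 on both lateral arrays, and all 8 were lower in the sorted neurons than in the mdDA domain. The 8 pan-neuronal genes went both ways between sorted neurons and mdDA domain, with a median difference of -0.02. The synaptic genes *Snap25* (1.04) and *Syt1* (0.79) and the microtubule regulator gene *Stmn2* (0.64) were higher, the neurofilament gene *Nefl* (-0.72) was lower, and 4 were not called. Their mean level was 9.68 to 9.72 at E14.5, 9.76 to 9.85 at E13.5, 9.55 to 9.60 in the mdDA domain and 9.02 to 9.05 in the lateral domain. For 5 GABAergic genes the means were 5.72 to 5.86 at E14.5, 6.10 to 6.18 at E13.5, 4.54 to 4.82 in the mdDA domain and 7.90 to 7.95 in the lateral domain. Of these 5, 4 were higher in the sorted neurons than in the mdDA domain. They were *Gad2* and *Slc32a1* (2.53 each), *Gata3* (0.88) and *Gad1* (0.67), while *Tal2* (-0.17) was not called. All 5 were below their lateral levels in the mdDA domain. In the sorted neurons the mean of *Slc32a1* (7.62) was above its lateral mean (6.44), and those of the other 4 were below theirs. Endothelial genes, with means of 3.97 to 4.10 on the sorted arrays and 4.63 to 4.86 on the dissected ones, were lower in the sorted neurons than in the mdDA domain for 2 of 4. In the same comparison 1 of 4 microglial genes was higher, and *Alas2*, the erythroid gene measured, was lower. The part of these cell mixtures in the results on chromatin genes was not tested, and fewer cells of a type and less RNA per cell cannot be told apart in such samples.

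Levels are log2 values, so a difference of 1 is a doubling, and a level is compared only within a gene. A gene was called where limma gave an adjusted p below 0.1 over all 35556 probe sets, a false discovery rate of 10%. Among the 48 genes, 15 were called in at least 1 of the 3 comparisons and 33 in none, against 18.9% of all genes called in at least 1. In the heat map of all 48 genes, the largest departures from a gene's own mean were those of *Smarca1*, *Smarca2*, *Chd5* and *Actl6a*.

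**Figure D1:**
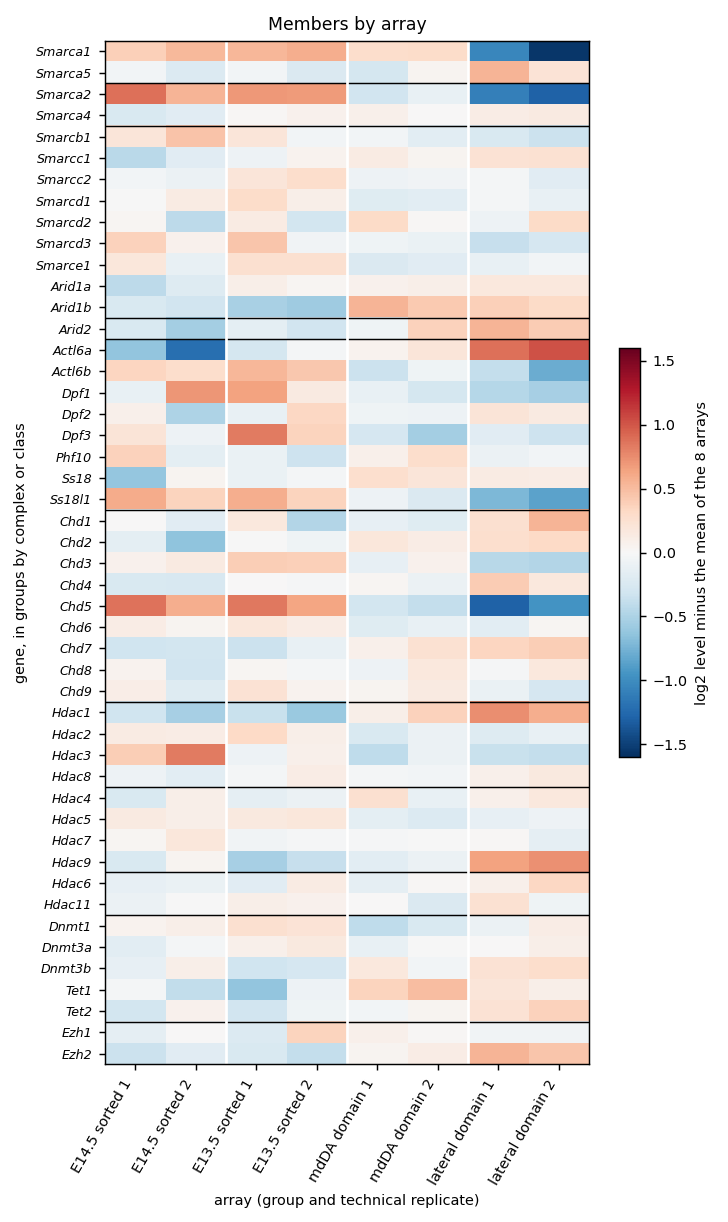
Log2 level of each of the 48 genes (down the page, in groups by complex or class) on each of the 8 arrays (across), minus that gene's mean over the 8 arrays, in red where higher and in blue where lower. *Smarca1* was lowest on both lateral arrays (5.70 and 6.21), and *Actl6a* ran the other way, with its highest levels (7.24 and 7.37) there.

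*Smarca1* was the 1 member called between the mdDA domain and the lateral domain. It encodes SNF2L, 1 of the 2 ATPases of the ISWI remodelers, and is known for its expression in brain. Its log2 level was 7.64 and 7.77 in E14.5 neurons, 7.79 and 7.84 in E13.5 neurons, 7.54 and 7.55 in the mdDA domain, and 6.21 and 5.70 in the lateral domain. All 6 arrays of mdDA cells thus lay above both lateral arrays by more than 1 log2 unit, and the lateral arrays differed from each other by more than any other pair did. The mdDA domain exceeded the lateral domain by 1.59 ± 0.19 (SE), or 3.01-fold, and passed the threshold (adjusted p = 0.0675, paired limma fit). The sorted neurons and the mdDA domain differed by 0.21 ± 0.16 (95% interval -0.16 to 0.59, adjusted p = 0.428 by limma), and E14.5 and E13.5 neurons by -0.11 (adjusted p = 0.931 by limma). With 1 array left out, the call against the lateral domain was kept in 1 of 4 fits, that without the first lateral array. The difference ran from 1.34 to 1.84 over all alternatives, always in the same direction.

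Its ISWI counterpart *Smarca5*, which encodes SNF2H, behaved differently. It measured 7.72 and 7.54 in E14.5 neurons, 7.71 and 7.53 in E13.5 neurons, 7.48 and 7.81 in the mdDA domain, and 8.30 and 7.98 in the lateral domain. Here the lateral arrays were the high ones, although the difference of -0.50 ± 0.22 between the mdDA and the lateral domain was not called (adjusted p = 0.437 by limma). Within each array, the log2 level of *Smarca1* minus that of *Smarca5* was 2.09 higher in the mdDA than in the lateral domain, a 4.26-fold shift of their ratio, with no overlap between the arrays.

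Of 6 other genes of ISWI complexes, none was called between the domains by limma (2 had an unadjusted p below 0.05), and all 6 were below 0 in the sorted neurons relative to the mdDA domain. *Cecr2*, which encodes a bromodomain partner of the ISWI ATPases, was the 1 called (16.7% of the 6, where 7.29% of all genes were lower). It stood at 4.23 and 4.31 in E14.5 neurons, at 4.84 and 5.06 in E13.5 neurons, at 5.95 and 5.59 in the mdDA domain, and at 6.68 and 6.62 in the lateral domain. The sorted neurons were lower than the mdDA domain by 1.16 on the log2 scale (difference -1.16, adjusted p = 0.00766 by limma) without overlap.

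The promoter of *Smarca1* is shown because this gene carried the 1 call between the domains. The 150 bases before its RefSeq start site are at chrX:47892614-47892763 on the minus strand (GRCm38.p6), written 5′ to 3′ in the direction of transcription, with capitals where the CCAAT box was found as ATTGG, its reading on the opposite strand.
Smarca1: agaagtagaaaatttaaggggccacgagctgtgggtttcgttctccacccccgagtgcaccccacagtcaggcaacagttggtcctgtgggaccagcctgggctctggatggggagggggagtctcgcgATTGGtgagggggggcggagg
The stretch held 62.0% G and C and 6 CpG dinucleotides. Such a match is a description of the letters only.

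In the comparison of the mdDA with the lateral domain, *Smarca1* was 1 gene called higher of 48 (2.08%) and none was called lower, against 1.69% of all genes called higher and 1.13% called lower (1.52% and 1.1% of probe sets). At an unadjusted p below 0.05, limma gave 9 members, beside 2572 of all 19938 genes. The median difference of the 48 was -0.08, beside -0.01 over all genes. Differences of the other 47 ran from -0.82 for *Actl6a* to 0.98 for *Smarca2*. With the replicate number left out of the fit, 2 members were called higher (*Smarca1* and *Smarca2*) and 2 lower (*Actl6a* and *Hdac9*). *Hdac9*, a class IIa deacetylase known from muscle and brain, is an example of this borderline class, with 5.65 and 5.95 in E14.5 neurons, 5.36 and 5.53 in E13.5 neurons, 5.73 and 5.81 in the mdDA domain, and 6.54 and 6.63 in the lateral domain. Both lateral arrays stood above all others, by 0.82 on the log2 scale relative to the mdDA domain (difference -0.82, adjusted p = 0.122 by limma). *Hdac9* was named after its values were seen.

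The sorted neurons were then compared with the mdDA domain. Their 4 arrays were set against the 2 of the domain in 1 limma fit of all 8. Of the 48 genes, 8 were higher (16.7%) and 6 were lower. Over all genes, 10.3% were higher and 7.29% lower (8.53% and 9.84% of probe sets). By limma, 21 members had an unadjusted p below 0.05, beside 5363 of all 19938 genes. The median difference of the 48 was -0.01, beside -0.05 over all genes. The higher ones were *Smarca2*, *Actl6b*, *Dpf3*, *Ss18l1*, *Chd5*, *Hdac3*, *Hdac5* and *Dnmt1*. The lower ones were *Arid1b*, *Actl6a*, *Chd7*, *Hdac1*, *Tet1* and *Ezh2*. The shares over all genes, here and below, include many dim ones, whereas 46 of the 48 members lay above the median mean level of all probe sets. With the dim probe sets left out, 10 of these 46 members were higher and 7 lower, beside 2317 and 1025 of 10783 genes. The share of members called higher was then about that of these genes, and the share called lower stayed above theirs.

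**Figure D2:**
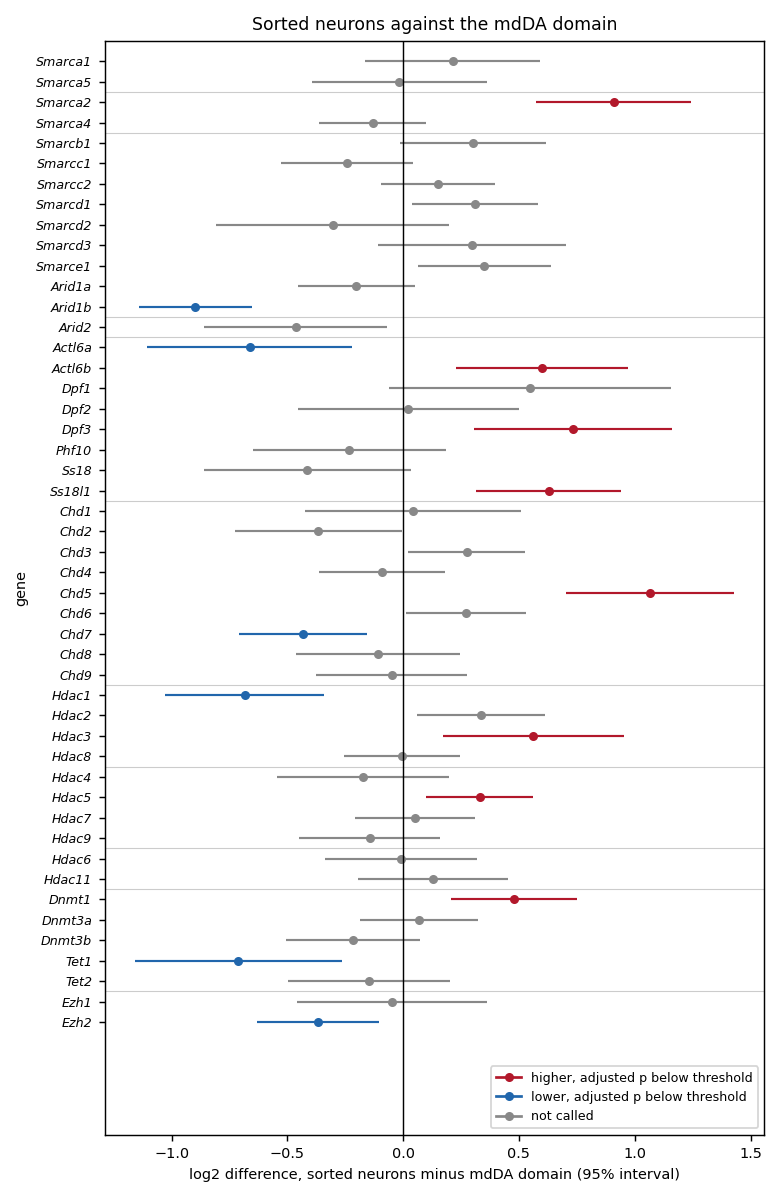
Log2 difference of each of the 48 genes between the sorted neurons (4 arrays) and the mdDA domain (2 arrays), with its 95% interval from limma, in red where called higher, in blue where called lower and in grey where not called. The called differences ran from -0.90 for *Arid1b* to 1.07 for *Chd5*.

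These calls differed in how far they depended on the arrays and on their scaling. *Smarca2*, *Chd5* and *Arid1b* were called in all 10 alternatives tried and in all 6 fits with 1 array left out, and *Hdac1* in all 10 and in 5 of 6. Without the first mdDA array, 2 genes remained called higher (*Smarca2* and *Chd5*) and 2 lower (*Arid1b* and *Hdac1*), and without the second array 2 higher (*Smarca2* and *Chd5*) and 1 lower (*Arid1b*). Without the first E13.5 array the counts were 5 higher and 3 lower. The median of all probe sets was 4.39 on the sorted arrays, against 4.57 to 4.60 on the dissected ones. Centring each array on its median raised the sorted-minus-mdDA differences by 0.20 at the median gene, and repeated quantile normalization raised the median gene by 0.10. Under quantile normalization the members themselves went mostly the other way, with 39 of the 48 differences lowered and 9 raised, by -0.17 at the median member. After centring, 15 members were higher and 2 lower (*Arid1b* and *Hdac1*). After repeated quantile normalization, 2 were higher (*Smarca2* and *Chd5*) and 9 lower. The share of all called genes that were higher was 58.6% as deposited, 86.1% after centring and 63.0% after quantile normalization. None of the 14 called members changed sign in these fits.

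In the BAF complex, the ATPase subunit *Smarca2* (BRM) was higher in sorted neurons while its alternative *Smarca4* (BRG1) was not called. *Smarca2* stood at 8.22 and 7.89 in E14.5 neurons, at 8.04 and 8.03 in E13.5 neurons, at 7.04 and 7.23 in the mdDA domain, and at 6.25 and 6.05 in the lateral domain. The 3 kinds of sample formed separate steps, with the sorted neurons at both ages on the top one. The sorted neurons exceeded the mdDA domain by 0.91 ± 0.14, or 1.88-fold (adjusted p = 0.0135 by limma). The mdDA domain was 0.98 ± 0.17 above the lateral domain, which was not called in the paired fit (adjusted p = 0.12 by limma) but was in 5 of 10 alternatives. Both comparisons share the mdDA arrays.

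*Smarca4*, the ATPase known to be needed in neural stem cells, measured 9.73 and 9.80 in E14.5 neurons, 10.002 and 10.051 in E13.5 neurons, 10.06 and 9.99 in the mdDA domain, and 10.10 and 10.12 in the lateral domain. The sorted and mdDA arrays overlapped, with a difference of -0.13 (95% interval -0.36 to 0.10, adjusted p = 0.425 by limma). The within-array difference of *Smarca2* minus *Smarca4* was 1.04 higher in the sorted neurons than in the mdDA domain, a 2.06-fold shift of the ratio.

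*Arid1b* had the lowest adjusted p of the set. It encodes a large subunit that takes the place of ARID1A in a share of BAF complexes, and its mutation in humans causes a neurodevelopmental disorder. Its level was 7.10 and 7.04 in E14.5 neurons and 6.83 and 6.78 in E13.5 neurons, against 7.90 and 7.77 in the mdDA domain. The lateral domain, at 7.73 and 7.65, was close to the mdDA domain. Sorted neurons were 1.86-fold lower than the mdDA domain (difference -0.90 ± 0.10, adjusted p = 0.00657 by limma). For *Arid1a* the same difference was -0.20 (adjusted p = 0.273 by limma), with arrays that overlapped.

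The other core subunits moved little. Among the 9 genes of the core, including both ARID1 genes, 1 was called, *Arid1b* (11.1% lower, where 7.29% of all genes were lower). Differences of the 9 between sorted neurons and mdDA domain ran from -0.90 to 0.35, with 5 above 0 and 4 below. *Smarce1*, a core subunit with an HMG box, had 3 probe sets with differences from 0.35 to 0.42, and 2 of the 3 were called higher, while the one with the highest mean was not (0.35, adjusted p = 0.117 by limma). *Smarcd2* had levels of 3.75 to 4.48 and was, with *Dnmt3b*, 1 of 2 members whose mean lay below the median of all probe sets. *Arid2*, of the PBAF form of the complex, differed by -0.47 without overlap and was not called (adjusted p = 0.128 by limma). None of 8 other BAF and PBAF genes was called by limma (3 had an unadjusted p below 0.05), although 7 of the 8 were above 0.

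The subunits exchanged between progenitors and neurons were read next, each in all 4 groups. Of 8 such genes, 3 were called higher and 1 lower in the sorted neurons, where 10.3% of all genes were higher and 7.29% lower. All 4 were in the direction known for the progenitor-to-neuron exchange, and the other 4 were not called.

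**Figure D3:**
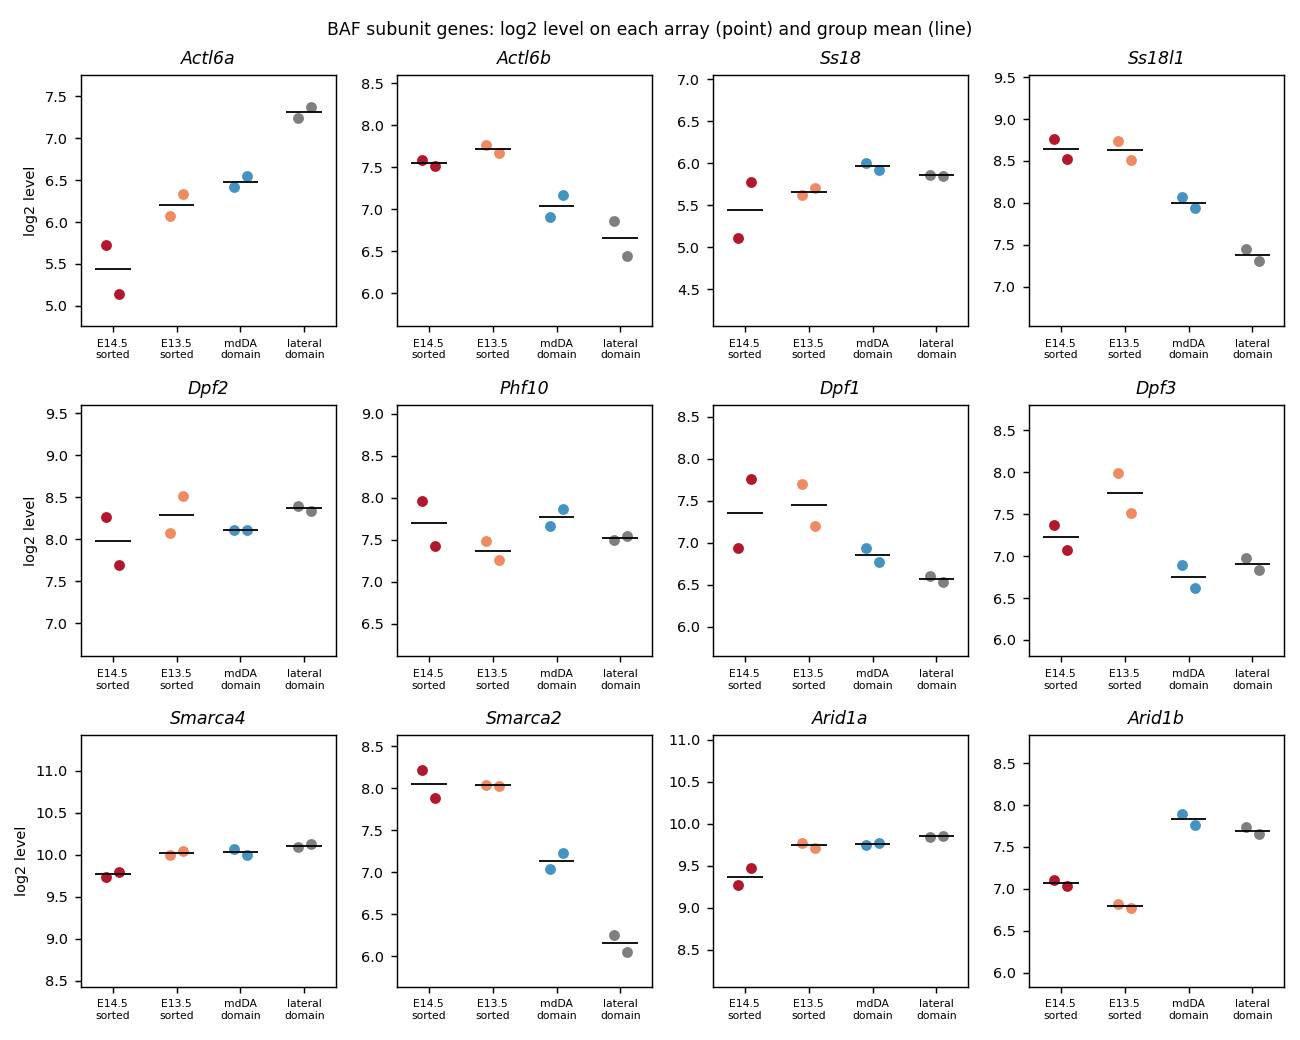
Log2 level of 12 BAF subunit genes on each array (points) with the mean of each group of 2 technical replicates (line), each panel spanning 3 log2 units, for E14.5 sorted neurons, E13.5 sorted neurons, the mdDA domain and the lateral domain. *Actl6a* lay between 5.15 and 6.33 in sorted neurons and above 6.4 in both domains, and *Actl6b* was above 7.5 on all sorted arrays and below 7.2 on all others.

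In the actin-related pair, the RNA of both genes was called in the direction known for the exchange, between sorted neurons and mdDA domain. *Actl6a*, the progenitor subunit, measured 5.73 and 5.15 in E14.5 neurons, 6.07 and 6.33 in E13.5 neurons, 6.42 and 6.55 in the mdDA domain, and 7.24 and 7.37 in the lateral domain. The 4 groups did not overlap and stood in an order from the lateral domain at the top to E14.5 neurons at the bottom. In the sorted neurons it was 1.58-fold lower than in the mdDA domain (difference -0.66 ± 0.18, adjusted p = 0.0694 by limma). The mdDA domain was 0.82 below the lateral domain (difference -0.82 ± 0.15, adjusted p = 0.121 by limma). The step between the ages, -0.76 ± 0.25, had an unadjusted p of 0.0376 and did not pass (adjusted p = 0.806 by limma).

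*Actl6b*, the neuronal subunit, stood at 7.58 and 7.52 in E14.5 neurons, at 7.77 and 7.67 in E13.5 neurons, at 6.90 and 7.17 in the mdDA domain, and at 6.87 and 6.44 in the lateral domain. Every sorted array was above every dissected one. Its difference between sorted neurons and mdDA domain was 0.60 ± 0.15, or 1.51-fold (adjusted p = 0.0577 by limma). Centring took away the call of *Actl6a*, and repeated quantile normalization that of *Actl6b*, so that of the 3 scalings the deposited one alone called both. The call held in 6 of 10 alternatives for *Actl6a* and in 8 of 10 for *Actl6b*. Leaving out either mdDA array took away both calls. With single arrays left out as well, the difference ran from -0.81 to -0.47 for *Actl6a* and from 0.41 to 0.80 for *Actl6b*.

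The ratio of the pair does not change when an array is centred. The log2 ratio of *Actl6b* over *Actl6a*, set to 0 at the lateral mean, was 2.51 and 3.03 in E14.5 neurons, 2.35 and 1.99 in E13.5 neurons, 1.14 and 1.28 in the mdDA domain, and 0.28 and -0.28 in the lateral domain. No group of arrays overlapped another. The ratio was 2.40-fold higher in the sorted neurons than in the mdDA domain and 2.31-fold higher in the mdDA than in the lateral domain. An exact two-sided permutation test of 4 arrays against 2 cannot go below p = 0.0667, the value it gave here, or 0.15 after adjustment over the 9 ratios computed, which were chosen after the data were seen.

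The promoters of this pair are shown side by side because their genes moved in opposite directions. Both are the 150 bases before the RefSeq start on the plus strand of GRCm38.p6, at chr3:32708396-32708545 for *Actl6a* and chr5:137553396-137553545 for *Actl6b*, with capitals for CCAAT on the strand given or ATTGG, its reading on the other strand.
Actl6a: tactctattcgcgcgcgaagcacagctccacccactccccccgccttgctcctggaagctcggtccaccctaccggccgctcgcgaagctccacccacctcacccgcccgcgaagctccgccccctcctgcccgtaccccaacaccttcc
Actl6b: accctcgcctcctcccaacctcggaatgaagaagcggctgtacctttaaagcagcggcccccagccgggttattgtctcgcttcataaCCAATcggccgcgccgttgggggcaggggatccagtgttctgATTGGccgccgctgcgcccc
*Actl6a* had 15 CpG dinucleotides and no match to the motifs searched, and *Actl6b* had 13 and 2 matches.

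In the SS18 pair, the neuronal gene alone was called between sorted neurons and mdDA domain. *Ss18l1* (CREST), a calcium-responsive coactivator needed for dendrite growth in mouse, was at 8.76 and 8.52 in E14.5 neurons, at 8.74 and 8.51 in E13.5 neurons, at 8.07 and 7.93 in the mdDA domain, and at 7.45 and 7.30 in the lateral domain. As with *Smarca2*, the levels formed 3 steps without overlap. It was 1.55-fold higher in sorted neurons than in the mdDA domain (difference 0.63 ± 0.13, adjusted p = 0.0312 by limma), and the mdDA domain was 0.63 ± 0.15 above the lateral domain (adjusted p = 0.188 by limma).

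*Ss18* itself measured 5.11 and 5.77 in E14.5 neurons, 5.62 and 5.70 in E13.5 neurons, 6.01 and 5.93 in the mdDA domain, and 5.86 and 5.85 in the lateral domain. Its difference of -0.41 ± 0.19 between sorted neurons and mdDA domain was not called (adjusted p = 0.208 by limma), although the arrays did not overlap. The ratio of *Ss18l1* over *Ss18* was 2.06-fold higher in the sorted neurons than in the mdDA domain.

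Among the PHD finger subunits the neuronal *Dpf3* was called and the other 3 were not. *Dpf3* measured 7.37 and 7.08 in E14.5 neurons and 7.99 and 7.52 in E13.5 neurons, against 6.89 and 6.62 in the mdDA domain. The lateral domain, at 6.98 and 6.83, overlapped with the mdDA domain. Sorted neurons were 1.66-fold above the mdDA domain (difference 0.73 ± 0.18, adjusted p = 0.0486 by limma), a call lost after repeated quantile normalization.

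*Dpf1*, the other neuronal form, gave 6.94 and 7.76 in E14.5 neurons, 7.70 and 7.20 in E13.5 neurons, 6.93 and 6.77 in the mdDA domain, and 6.60 and 6.53 in the lateral domain. One E14.5 array was as low as the mdDA domain, and the difference of 0.55 ± 0.25 was not called (adjusted p = 0.22 by limma).

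The 2 progenitor forms did not separate the groups. *Phf10* was at 7.96 and 7.43 in E14.5 neurons, at 7.48 and 7.26 in E13.5 neurons, at 7.66 and 7.87 in the mdDA domain, and at 7.49 and 7.54 in the lateral domain. *Dpf2* was at 8.26 and 7.69 in E14.5 neurons, at 8.07 and 8.52 in E13.5 neurons, at 8.12 and 8.11 in the mdDA domain, and at 8.40 and 8.34 in the lateral domain. Sorted and mdDA arrays overlapped for both, with differences of -0.23 (95% interval -0.65 to 0.18) and 0.02 (95% interval -0.45 to 0.50). The sign for *Dpf2* turned with the scaling.

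The ratios of neuronal over progenitor PHD finger genes were less clear than those of the other pairs. *Dpf3* over *Dpf2* was 1.64-fold and *Dpf3* over *Phf10* 1.95-fold higher in the sorted neurons than in the mdDA domain, without overlap (exact permutation p = 0.133 for each). *Dpf1* over *Dpf2* (1.44-fold, exact permutation p = 0.4) and *Dpf1* over *Phf10* (1.72-fold, exact permutation p = 0.267) overlapped between these groups. Between the mdDA and the lateral domain, the log2 ratio of *Dpf3* over *Phf10* went the opposite way, by -0.40.

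The CHD family comprises remodelers with chromodomains, of which CHD3, CHD4 and CHD5 are alternative ATPases of the NuRD deacetylase complex. *Chd5*, the form known for its expression in neurons, had the largest rise of the 48 genes in the sorted neurons. Its levels were 7.29 and 7.0 in E14.5 neurons, 7.26 and 7.05 in E13.5 neurons, 6.13 and 6.03 in the mdDA domain, and 5.12 and 5.46 in the lateral domain. The 3 steps did not overlap, and both ages lay on the same one. Sorted neurons were 2.09-fold above the mdDA domain (difference 1.07 ± 0.15, adjusted p = 0.0111 by limma). The mdDA domain was 0.79 ± 0.18 above the lateral domain (adjusted p = 0.181 by limma).

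The broadly expressed *Chd4* differed by -0.09 between sorted neurons and mdDA domain (adjusted p = 0.651 by limma), so that the ratio of *Chd5* over *Chd4* was 2.23-fold higher in the sorted neurons. *Chd3* differed by 0.27 (adjusted p = 0.152 by limma). Of 10 other NuRD genes, 1 was called higher (10%, where 10.3% of all genes were higher), *Mta1*, which encodes a scaffold subunit. It measured 7.30 and 7.47 in E14.5 neurons, 7.68 and 7.76 in E13.5 neurons, 6.94 and 7.12 in the mdDA domain, and 7.52 and 7.29 in the lateral domain, with a difference of 0.53 between sorted neurons and mdDA domain (adjusted p = 0.0453 by limma).

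*Chd7*, whose human counterpart is mutated in CHARGE syndrome, was lower in the sorted neurons. Its probe set with the highest mean gave 8.59 and 8.62 in E14.5 neurons, 8.56 and 8.79 in E13.5 neurons, 8.99 and 9.16 in the mdDA domain, and 9.26 and 9.31 in the lateral domain. The sorted arrays stayed below the dissected ones, with a difference of -0.43 ± 0.12, 1.35-fold (adjusted p = 0.0622 by limma). This call held in 5 of 10 alternatives and was lost after centring. Leaving out either mdDA array took it away too. The array design holds 30 probe sets for this gene. Of these, 20 were below 0 and 10 above 0, and their differences ran from -1.84 to 0.55. In all, 7 were called lower and none higher, where 9.84% of all probe sets were lower and 8.53% higher.

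**Figure D4:**
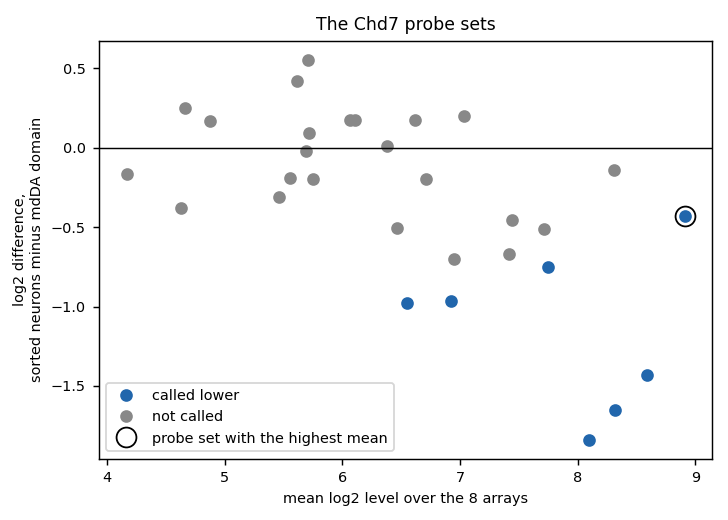
Log2 difference between sorted neurons and mdDA domain for each of the 30 probe sets of *Chd7*, against the mean log2 level of the probe set over the 8 arrays, in blue where called lower and in grey where not called. The circled probe set is the one with the highest mean (-0.43), and the others ran from -1.84 to 0.55.

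The other CHD genes were not called in any comparison. Over the 9 genes of the family, differences between sorted neurons and mdDA domain ran from -0.43 to 1.07, with 4 above 0 and 5 below. The 2 probe sets of *Chd6* went opposite ways (0.27 and -0.33), and neither was called.

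Among the class I deacetylases, which work in nuclear co-repressor complexes, *Hdac1* was lower and *Hdac3* higher in the sorted neurons. *Hdac1* stood at 7.44 and 7.22 in E14.5 neurons, at 7.40 and 7.16 in E13.5 neurons, at 7.86 and 8.13 in the mdDA domain, and at 8.51 and 8.35 in the lateral domain. The sorted neurons held the low end without overlap and the lateral domain the high end. They were 1.61-fold below the mdDA domain (difference -0.69 ± 0.14, adjusted p = 0.0314 by limma). Both probe sets of the gene were called lower.

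Its close relative *Hdac2*, which shares complexes with HDAC1, differed by 0.34 in the other direction without overlap and was not called (adjusted p = 0.117 by limma). *Hdac3*, the deacetylase of the NCOR complexes, measured 7.30 and 7.74 in E14.5 neurons, 6.83 and 6.99 in E13.5 neurons, 6.50 and 6.81 in the mdDA domain, and 6.55 and 6.53 in the lateral domain. The E14.5 arrays were the highest, and the lowest sorted array was barely above the highest mdDA array. The sorted neurons exceeded the mdDA domain by 0.56 ± 0.16, or 1.48-fold (adjusted p = 0.0775 by limma), but the call held in 1 of the 6 fits with an array left out. The step between the ages, 0.61 ± 0.20, had an unadjusted p of 0.0385 and did not pass (adjusted p = 0.806 by limma).

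In class IIa, whose members shuttle between nucleus and cytoplasm, *Hdac5* was 7.43 and 7.39 in E14.5 neurons, 7.44 and 7.47 in E13.5 neurons, 7.13 and 7.07 in the mdDA domain, and 7.15 and 7.21 in the lateral domain. The replicates lay close together and the sorted arrays above all dissected ones, by 0.33 ± 0.10 or 1.26-fold relative to the mdDA domain (adjusted p = 0.0781 by limma). This call was lost in all 6 fits with an array left out. *Hdac4*, *Hdac7* and *Hdac9* differed by -0.17 to 0.05, and *Hdac6* and *Hdac11* by -0.01 and 0.13, none of them called.

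Of 8 other co-repressor genes measured, 1 was higher and 1 lower in the sorted neurons. Over all genes, 10.3% were higher and 7.29% lower. The 8 included *Hdac10*, itself a deacetylase gene, which was not called. *Sin3b*, a scaffold for HDAC1 and HDAC2, was at 6.46 and 6.31 in E14.5 neurons, 6.70 and 6.26 in E13.5 neurons, 5.62 and 5.97 in the mdDA domain, and 5.66 and 5.71 in the lateral domain, and its difference between sorted neurons and mdDA domain was 0.64 (adjusted p = 0.0604 by limma). *Rest*, the repressor of neuronal genes, was at 3.83 and 4.03 in E14.5 neurons, 4.03 and 3.81 in E13.5 neurons, 4.51 and 4.34 in the mdDA domain, and 4.88 and 5.20 in the lateral domain, and differed by -0.50 (adjusted p = 0.0822 by limma). Neither gene's sorted arrays overlapped those of the mdDA domain. The levels of *Rest* were dim, below the median of all probe sets on every sorted array (4.39) and on both mdDA arrays (4.60 and 4.57).

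**Figure D5:**
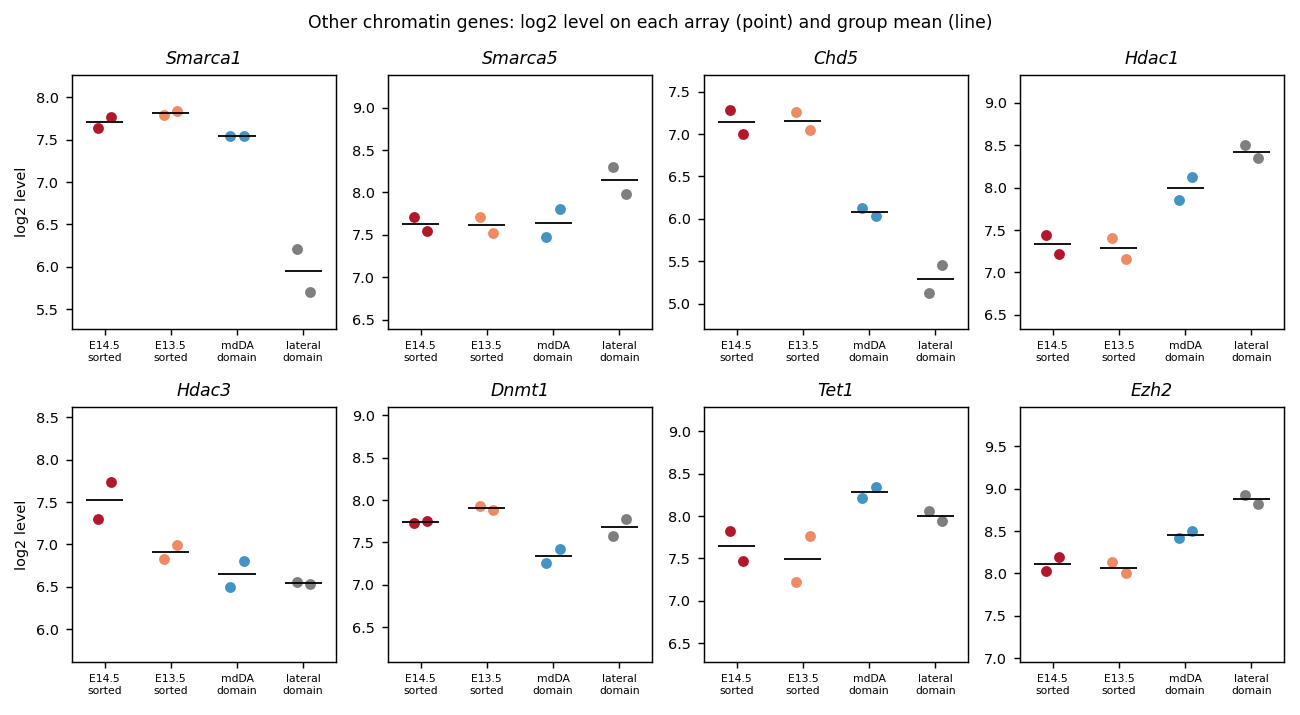
Log2 level of 8 remodeler, deacetylase, DNA methylation and PRC2 genes on each array (points) with the mean of each group of 2 technical replicates (line), each panel spanning 3 log2 units. *Smarca1* was above 7.5 in all mdDA samples and at 5.70 and 6.21 in the lateral domain, *Chd5* stood in 3 steps with the sorted neurons on top, and *Hdac1* was lowest in the sorted neurons.

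The DNA methylation genes moved in both directions. *Dnmt1*, the maintenance methyltransferase that copies methylation at replication, measured 7.73 and 7.76 in E14.5 neurons, 7.93 and 7.88 in E13.5 neurons, 7.26 and 7.43 in the mdDA domain, and 7.58 and 7.78 in the lateral domain. The mdDA domain was the lowest of the 4 groups. The sorted neurons exceeded it by 0.48 ± 0.11, or 1.39-fold (adjusted p = 0.0447 by limma). In the same comparison, 6 of the 9 cell division genes were lower.

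*Tet1*, which oxidises methylcytosine, measured 7.82 and 7.46 in E14.5 neurons, 7.22 and 7.77 in E13.5 neurons, 8.22 and 8.35 in the mdDA domain, and 8.05 and 7.94 in the lateral domain. The sorted replicates spread widely but stayed below the dissected arrays, with a 1.64-fold lower mean than the mdDA domain (difference -0.71 ± 0.19, adjusted p = 0.0599 by limma). All 3 of its probe sets were below 0 and 2 were called lower. *Dnmt3a*, *Dnmt3b* and *Tet2* differed by -0.22 to 0.07 and were not called, and none of 5 other genes of the pathway was called by limma (1 had an unadjusted p below 0.05).

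Of the PRC2 catalytic subunits, *Ezh2*, the form of dividing cells, was lower and *Ezh1* was not called. *Ezh2* stood at 8.03 and 8.19 in E14.5 neurons, at 8.13 and 8.0 in E13.5 neurons, at 8.42 and 8.50 in the mdDA domain, and at 8.92 and 8.82 in the lateral domain. The groups of sorted, mdDA and lateral arrays did not overlap. Sorted neurons were 1.29-fold below the mdDA domain (difference -0.37 ± 0.11, adjusted p = 0.083 by limma), a call lost after centring and held in 1 of the 6 fits with an array left out. The mdDA domain was 0.41 below the lateral domain (difference -0.41 ± 0.15, adjusted p = 0.362 by limma). *Ezh1* differed by -0.05 between sorted neurons and mdDA domain, and none of 6 other PRC2 genes was called by limma (0 had an unadjusted p below 0.05).

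Between E14.5 and E13.5 sorted neurons no member was called, and neither was any other gene (0% of 19938 genes and 0% of 35556 probe sets). At an unadjusted p below 0.05, limma gave 2 members, *Actl6a* and *Hdac3*, of 1007 genes in all. Differences of the 48 ran from -0.76 to 0.61 with a median of -0.10. For *Smarca2*, *Chd5* and *Ss18l1* the difference between the ages was 0.02 (95% interval -0.45 to 0.48), -0.01 (95% interval -0.49 to 0.46) and 0.01 (95% interval -0.45 to 0.48).

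Promoter windows from RefSeq, from 250 bases before to 50 after a start site, were found for 39 of the 48 genes and searched on both strands for 4 motifs. The 39 genes had 51 windows, since a gene may have several starts. CCAAT was present in 17 of the 51 (33.3%), in 15 genes, against 37.4% of 32851 windows of all genes. TTTCCCGC, a reading of the E2F site, was present in 2 of the 51 windows (3.92%, *Arid1a* and *Smarcd1*), against 1.07% of all windows. TTTGGCGC, another reading of it, was also in 2 of 51 (3.92%, *Dnmt1* and *Ezh2*), against 0.514% of all, and of these genes *Dnmt1* was higher and *Ezh2* lower in the sorted neurons. TGACGTCA, the cAMP response element, was in 0 of 51 (1.79% of all windows).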

How the data were processed

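The authors hybridised amplified RNA to Affymetrix Mouse Gene 1.0 ST arrays and deposited gene-level log2 values made by RMA with sketch-quantile normalization (Expression Console 1.2). An array gives no read depth, so the number of arrays (2 a group) limits the precision. By the platform annotation, 21789 probe sets had 1 gene symbol, 1621 several and 12146 none, and those with several were used for no gene. limma 3.58.1 (R 4.3.3) was fitted to all 35556 probe sets with Benjamini-Hochberg adjustment. The mdDA domain against the lateral domain used 4 arrays with the replicate number as a block, after the study's paired test (1 residual degree of freedom). The sorted neurons against the mdDA domain used all 8 arrays, and the 2 ages 4 arrays, both without a block. What pairs the replicates is not given in the sources used here. A replicate's deviations correlated between groups by -0.01 (mdDA and lateral domains). Normalization, filters, thresholds and single arrays were varied. Fits were also run on simulated data with independent noise and no pairing or shift between arrays. Such a run cannot tell how the calls depend on pairing or scaling.

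The genes, complex lists, markers and motifs were chosen with earlier results of these data known. Values array by array are given for *Smarca1*, for every called member and for the exchanged BAF subunits, and of the other complex genes for up to 2 called per complex. Of 47 such genes, 43 were measured. Between sorted neurons and mdDA domain, 2 of the 43 were called higher (4.65%) and 2 lower (4.65%). These shares were below the 10.3% and 7.29% of all genes.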

Additional observations from a re-analysis of the deposited data

How the results depend on the processing

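Between the mdDA and the lateral domain, 1 member was higher and 0 were lower. Counts became 2 and 2 without the replicate block, 3 and 1 with all 8 arrays and no replicate block, 2 and 2 without dim probe sets, 3 and 2 with the trend and robust options, 4 and 3 over probe sets with 1 symbol, and 0 and 0 at a rate of 5%. With 1 array left out (no block), 0 to 1 were higher. The adjusted p of *Smarca1* ran from 3.34e-05 to 0.186.

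Between the sorted neurons and the mdDA domain, 8 were higher and 6 lower. Counts became 2 higher after repeated quantile normalization, 15 higher and 2 lower after centring, 5 and 2 at a rate of 5%, and 5 higher at 1.5-fold or more. The 6 arrays of the compared groups gave 2 lower. With 1 array left out, 2 to 7 were higher and 1 to 6 lower. With the replicate block, 7 were higher and 4 lower, and *Hdac5*, *Actl6a* and *Ezh2* lost their calls; same-numbered arrays did not deviate together (correlations of -0.04 to 0.01), so the numbers mark no known pairing. The cause of these shifts was not tested.

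*Dpf2* turned to -0.18 under quantile normalization and ran from -0.12 to 0.17 with 1 array left out. *Hdac3* between the domains ran from -0.0435 to 0.27 with 1 array left out. Between the ages no member was called under any alternative run. With 2 technical replicates a group, spread between embryos is not measured.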
